A study of Homo sapiens with 12 samples.

Results

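The clustered histone genes encode the linker histone H1 and the core histones H2A, H2B, H3 and H4 that package newly made DNA. They were taken as every gene whose platform symbol begins with H1-, H2AC, H2BC, H3C or H4C, or with one of the older HIST names, pseudogenes left out. This gave 72 of 20044 genes named on the platform, and 36 of the 72 lay above background on at least 2 of the 12 arrays. The rule for the 72 used names and no measured values, but it was chosen with earlier results of these data known. The 36 depend on measured values through the background filter. RNA came from cells labelled SKBR-3, a human breast cancer line with amplified ERBB2, and was read after 24 hours of treatment on Illumina expression arrays. The 6 groups of 2 arrays each were untreated cells, Y15 at 1 µM, lapatinib at 5 µM, Y15 at 1 µM plus lapatinib at 5 µM, PF04554878 at 1 µM, and PF04554878 at 1 µM plus lapatinib at 5 µM. Y15 and PF04554878 are inhibitors of focal adhesion kinase (FAK), and lapatinib inhibits the kinases EGFR and HER2 (ERBB2). No vehicle is named for the untreated cells, and the extraction text mentions frozen tissue. Nothing says that the replicates came from separate cultures, so the p-values reflect the spread between these arrays alone, and that spread may be technical.

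Most clustered histone genes are transcribed in S phase, when DNA is copied, and their messages end in a stem-loop in place of a poly(A) tail. NPAT, a coactivator at histone gene clusters, and SLBP, the protein that binds the stem-loop, couple this output to DNA synthesis. Some of the genes also give polyadenylated messages, and the labelling kit named in the labels primes from poly(A) tails. Which form each probe measured is not known from these arrays. In bulk RNA, fewer cells in S phase and less histone message per cell cannot be told apart.

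Promoter windows from RefSeq (GRCh38.p14, from 250 bases before to 50 bases after the start) were found for 67 of the 72 members, and 5 are shown because their genes carry the changes described below. H2AC18 (chr1:149842701-149843000, minus strand) and H2AC20 (chr1:149886668-149886967, plus strand) lie in the chromosome 1 cluster. H2BC5 (chr6:26157871-26158170, plus strand), H1-2 (chr6:26056421-26056720, minus strand) and H4C8 (chr6:26285485-26285784, minus strand) lie in the chromosome 6 cluster. Each is printed 5′ to 3′ along its gene, and capitals mark exact matches, on either strand, to the TATA box letters TATAAA, to the CCAAT box and to the octamer ATTTGCAT known from H2B promoters.
H2AC18: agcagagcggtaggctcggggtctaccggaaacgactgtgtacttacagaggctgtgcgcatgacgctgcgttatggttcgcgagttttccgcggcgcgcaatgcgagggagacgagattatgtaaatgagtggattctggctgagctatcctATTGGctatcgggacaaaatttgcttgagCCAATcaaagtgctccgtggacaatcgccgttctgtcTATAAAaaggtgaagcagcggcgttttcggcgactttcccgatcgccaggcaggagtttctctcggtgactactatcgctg
H2AC20: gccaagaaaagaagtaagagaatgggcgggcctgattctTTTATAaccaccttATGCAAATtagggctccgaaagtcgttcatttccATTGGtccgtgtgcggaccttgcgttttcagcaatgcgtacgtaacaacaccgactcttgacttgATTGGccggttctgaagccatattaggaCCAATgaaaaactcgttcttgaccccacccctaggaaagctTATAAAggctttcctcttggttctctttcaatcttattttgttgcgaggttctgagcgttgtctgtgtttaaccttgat
H2BC5: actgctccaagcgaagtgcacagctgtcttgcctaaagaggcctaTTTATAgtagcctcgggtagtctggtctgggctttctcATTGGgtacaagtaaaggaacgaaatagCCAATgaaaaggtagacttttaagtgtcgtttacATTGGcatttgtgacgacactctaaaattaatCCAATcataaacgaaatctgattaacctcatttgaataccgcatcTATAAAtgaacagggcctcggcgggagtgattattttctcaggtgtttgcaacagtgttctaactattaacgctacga
H1-2: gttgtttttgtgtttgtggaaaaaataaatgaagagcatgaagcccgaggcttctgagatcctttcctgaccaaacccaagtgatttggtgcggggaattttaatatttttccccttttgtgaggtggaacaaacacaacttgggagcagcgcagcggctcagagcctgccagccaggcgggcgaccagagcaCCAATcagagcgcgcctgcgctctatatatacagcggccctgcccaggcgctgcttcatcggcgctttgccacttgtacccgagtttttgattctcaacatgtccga
H4C8: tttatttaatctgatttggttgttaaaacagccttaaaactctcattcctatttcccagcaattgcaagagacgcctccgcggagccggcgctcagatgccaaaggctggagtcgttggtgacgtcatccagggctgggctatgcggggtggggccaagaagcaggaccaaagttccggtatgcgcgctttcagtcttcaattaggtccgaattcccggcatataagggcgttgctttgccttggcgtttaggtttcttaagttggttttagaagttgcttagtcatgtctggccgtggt
The H2AC18 window holds the TATA box letters with their first base at -31 relative to the start, the H2AC20 window at -29 and the H2BC5 window at -28. H2AC20 alone of the 5 windows holds the octamer, on the opposite strand, and the H4C8 window holds none of the 3 motifs.

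Counting matches on both strands, overlapping ones included, TATAAA occurred for 65.7% of the 67 members against 14% of 27305 genes with RefSeq windows. A gene counted if any of its windows held the motif. CCAAT occurred for 83.6% of these members against 39.7% of all genes, and the octamer for 38.8% against 2.19%. By family, the octamer was found for 14 of 18 H2B and 11 of 16 H2A genes, for 1 of 11 H3 genes and for none of 13 H4 or 9 H1 genes. CCAAT was found for all of these H2A, H2B and H3 genes and for 3 of 13 H4 genes. These are matches of letters, not measured binding. In the RefSeq positions 11 pairs of an H2A and an H2B gene start 194 to 248 bases apart and run in opposite directions.

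Among the H1 genes, 3 of 9 lay above background (H1-1, H1-2 and H1-10), and among the H2A genes 9 of 17 (H2AC6, H2AC8, H2AC11, H2AC17, H2AC18, H2AC19, H2AC20, H2AC21 and H2AC25). Of the H2B genes 10 of 18 did so (H2BC4, H2BC5, H2BC6, H2BC7, H2BC8, H2BC9, H2BC11, H2BC12, H2BC18 and H2BC21). Of the H3 genes it was 7 of 13 (H3C4, H3C6, H3C7, H3C8, H3C10, H3C12 and H3C13) and of the H4 genes 7 of 15 (H4C3, H4C5, H4C8, H4C11, H4C12, H4C14 and H4C15). Chromosome 6 carries 25 of these 36, chromosome 1 carries 10, and H1-10, a solitary gene taken in by its name, lies on chromosome 3. Of the 36 members that did not pass, 7 were above background on 1 array and 29 on none, with a highest value of 6.90. Of the 36, 18 were above background on all 12 arrays, and the other 18 may have passed through the groups in which they are high.

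All values below are log2 intensities, which ran from 6.20 to 13.90 with a background cutoff of 6.80. A difference of 1 on this scale is a 2-fold change in intensity, and folds of dim genes are compressed. By their correlations the arrays fell into 3 sets, each made of whole treatment groups. The sets were untreated with Y15, lapatinib with Y15 plus lapatinib, and PF04554878 with PF04554878 plus lapatinib. Mean correlations across genes between groups of a set were 0.985 to 0.986, between sets 0.875 to 0.937, and between replicates 0.987 to 0.995. For a comparison between sets, treatment and set cannot be told apart, so the comparisons within a set are given first. ESR1, the oestrogen receptor gene, which SKBR-3 is known not to express, had group means of 9.85 to 10.44 and was above background on every array, which goes against the label. ERBB2 group means were 8.34 to 9.35, and those of GRB7, which is amplified with ERBB2 in SKBR-3, were 7.21 to 8.07. Both genes were above background on every array but far below the highest intensity of 13.90. Whether such levels go with amplification was not tested. Of markers of other cells, 3 of 12 fibroblast, 1 of 8 endothelial, 1 of 9 leukocyte, 2 of 5 basal and 1 of 5 adipocyte genes were above background on at least 2 arrays, and KRT5, KRT14 and MYH11 of the basal list and COL3A1, DCN and PDGFRA of the fibroblast list were above it on none.

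The first question was what Y15 adds to lapatinib. Adding Y15 went with lower histone signals: 10 of the 36 members fell and none rose, and 31 of 36 had a negative change. Genes of every family were among them. H2BC21 and H2BC5 (H2B), H2AC20, H2AC6, H2AC18 and H2AC19 (H2A), H2BC8 (H2B), H4C8 (H4), H3C7 (H3) and the linker histone H1-2 fell by between 0.42 and 0.93 on the log2 scale. Over all 11564 genes tested, 5.25% were called lower and 6.04% higher (limma, adjusted p below 0.05). The median change was -0.21 over the members and 0.01 over all genes.

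H2BC21, an H2B gene of the chromosome 1 cluster, read 8.79 and 8.73 on the arrays labelled lapatinib and 7.80 and 7.86 on those labelled Y15 plus lapatinib. Its change was -0.93 ± 0.10 (SE, n = 2 per group, limma adjusted p = 0.00015), or 1.91-fold lower. The latter arrays also lay below the untreated ones (8.32 and 8.54) and the Y15 ones (8.14 and 8.17), with no overlap. H2BC5, an H2B gene of the chromosome 6 cluster, went from a mean of 10.12 to 9.49, a change of -0.64 ± 0.09 (limma adjusted p = 0.000932). A second H2BC5 probe had means of 9.06 and 8.10 in the same groups.

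H2AC20, the H2A gene that starts 236 bases from H2BC21 on the opposite strand, read 8.65 and 8.53 with lapatinib and 8.01 and 8.05 with Y15 plus lapatinib. It changed by -0.56 ± 0.11 (limma adjusted p = 0.00411), and its arrays with the combination were the lowest of all 12. H2AC6, an H2A gene of chromosome 6, read 8.48 and 8.59 with lapatinib and 7.86 and 8.13 with the combination, and the groups did not overlap. H1-2, a linker histone gene, read 9.12 and 9.02 against 8.63 and 8.67, which lay next to the Y15 arrays at 8.63 and 8.59. H4C8, an H4 gene, read 7.53 and 7.71 against 7.13 and 7.20, again without overlap and close to Y15 alone at 7.14 and 7.13. Overlap was read only for genes already called and was not counted over all genes, so it adds no support to the calls.

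H2AC18 and H2AC19 are a nearly identical pair of H2A genes whose promoter windows match over 299 of 299 aligned bases. Their probes may read each other's message, so their calls are uncertain as separate events. H2AC18 read 9.31 and 8.87 with lapatinib and 8.47 and 8.68 with the combination, and H2AC19 read 8.88 and 9.02 against 8.50 and 8.41. The groups did not overlap in either gene, both of them already called, although the lapatinib arrays of H2AC18 had an SD of 0.31. H2BC12, an H2B gene of chromosome 6, ran the other way at 12.04 and 12.07 against 12.26 and 12.22, a difference of 0.19 that did not pass (limma adjusted p = 0.411).

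Only markers above background on at least 2 arrays were tested. Of these, 1 of 2 basal, 1 of 1 adipocyte and 1 of 3 identity genes moved in the same comparison. None of 3 fibroblast, 1 endothelial and 1 leukocyte genes passed. The basal marker ACTA2 fell by 0.57 on the log2 scale (limma adjusted p = 0.00162), while LEP of the adipocyte list rose by 0.45 and ESR1 by 0.59. The log2 levels of the 5 basal genes summed to between 37.3 and 37.4 with lapatinib and between 36.9 and 37.0 with the combination, and those of the 5 adipocyte genes to between 33.1 and 33.2 and between 33.5 and 33.8. These sums, here and below, take in genes that were not above background. The part of the markers in the histone changes was not tested.

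The 10 calls all came from the 18 members above background on every array. Most calls over all genes were of such genes too: a fit of them alone called 1167, beside 1306 in the main fit. The count fell whichever lapatinib or Y15 plus lapatinib array was left out, and so did the number of all genes called. H2BC21 and H2BC5 were called in each of these fits, and every member called in them was among the 10.

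**Figure D1:**
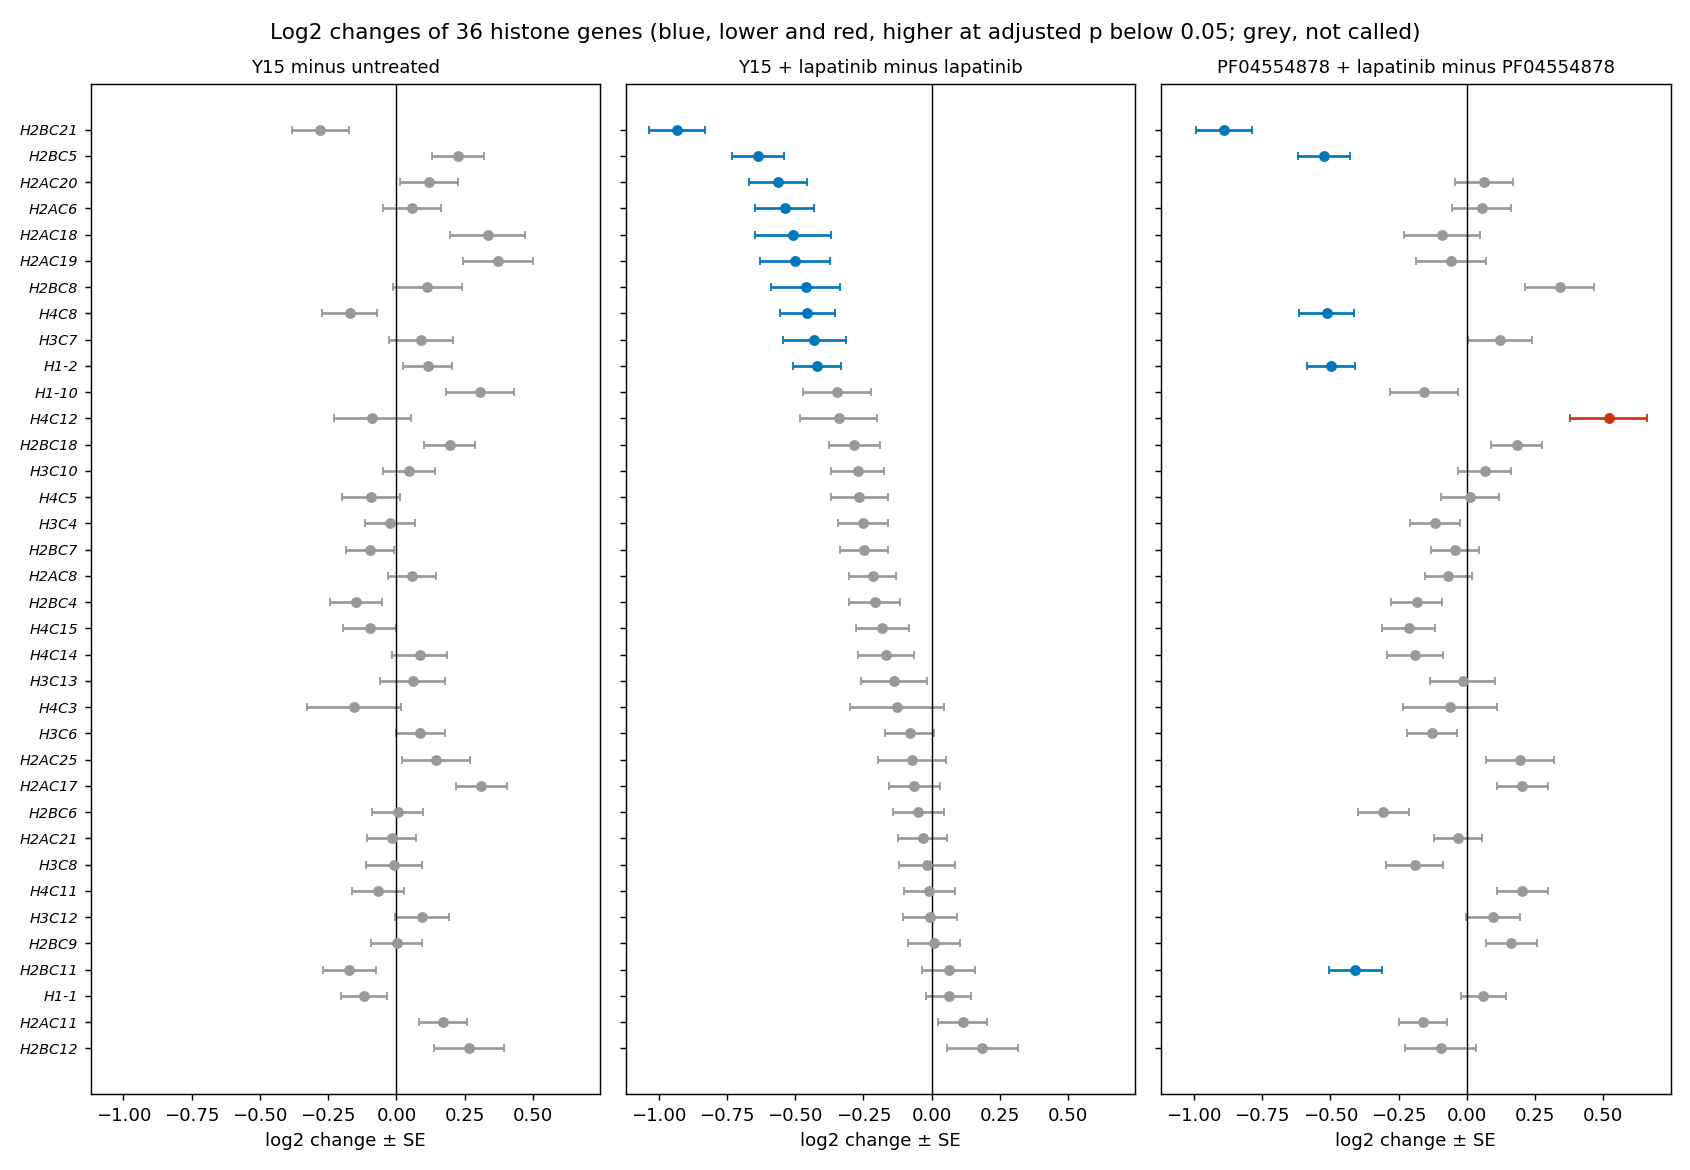
Log2 change ± SE (x axes) of the 36 histone genes (y axis, ordered by the middle panel) for Y15 minus untreated, Y15 plus lapatinib minus lapatinib, and PF04554878 plus lapatinib minus PF04554878, 2 arrays per group. Blue and red mark genes called lower and higher at a limma adjusted p below 0.05: none on the left, 10 lower in the middle, 5 lower and 1 higher on the right.

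Y15 alone left no histone gene past the threshold, which at the small share of all genes called does not set the members apart. Against untreated cells 0 of 36 members were called by limma, where 5.44% of all genes were, and 6 members had an unadjusted p below 0.05. Changes lay between -0.28 (H2BC21) and 0.37 (H2AC19), with a median of 0.06 over the members and 0.01 over all genes. The smallest adjusted p belonged to H2AC17, an H2A gene that read 6.80 and 6.74 untreated and 7.01 and 7.16 with Y15 (limma adjusted p = 0.0666). Without untreated replicate 1 the count was 1, and without untreated replicate 2 it was 2.

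Whether Y15 acted differently with and without lapatinib was tested as an interaction, the change with Y15 in the presence of lapatinib minus that in its absence. It was negative in 31 of 36 members and passed for 7, all below 0, where 2.23% of all genes were called below 0 and 1.63% above. The 7 were H2AC19 at -0.87, H2BC5 at -0.86, H2AC18 at -0.84, H2AC20 at -0.68, H2BC21 at -0.65, H2AC6 at -0.60 and H1-2 at -0.53. H2BC5 had the smallest limma adjusted p among them (0.00543) and was called in every fit with an array left out. The count itself depended on single arrays. It fell when any Y15, lapatinib or Y15 plus lapatinib array was left out, and so did the number of all genes called. With the replicate number as a block the count of members was 1, beside 22 of all genes, against 447 of all genes without the block. The block in effect leaves out the Y15 plus lapatinib array that alone carries its replicate number, so it is not a separate check.

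Adding lapatinib to PF04554878 is the other comparison within a set, and it shares no array with the one above. Of the 36 members 5 fell and 1 rose, where 4.78% of all genes were called lower and 4.10% higher. The median change was -0.06 over the members and -0.01 over all genes. H2BC21 read 9.80 and 9.59 with PF04554878 and 8.72 and 8.88 with the combination, a change of -0.89 ± 0.10 (limma adjusted p = 5.5e-05) without overlap. H2BC5 changed by -0.52 ± 0.09, H4C8 by -0.51 ± 0.10, H1-2 by -0.50 ± 0.09 and H2BC11, an H2B gene, by -0.41 ± 0.10.

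H4C8 read 8.33 and 8.22 with PF04554878 and 7.78 and 7.74 with lapatinib added. H1-2 read 9.35 and 9.46 against 8.95 and 8.88, and H2BC11 read 7.76 and 7.68 against 7.36 and 7.26. In all 3 the groups did not overlap, but these genes were already called. Overlap was not counted over all genes. H4C12, an H4 gene, rose from 7.44 and 7.63 to 8.27 and 7.85, a change of 0.52 ± 0.14 (limma adjusted p = 0.0315), with a wide gap between the arrays of the combination. Without PF04554878 replicate 1 the count was 3, with values of -0.46 for H4C8, -0.37 for H2BC11 and 0.42 for H4C12 past the threshold no longer. H4C12 also lost its call without PF04554878 replicate 2 or PF04554878 plus lapatinib replicate 1, and H2BC11 without replicate 2 of the latter. H2BC21, H2BC5 and H1-2 were called whichever array was left out. Of the markers tested, 1 of 3 fibroblast genes, COL5A1, fell by 0.91 and 1 of 3 identity genes, ERBB2, rose by 0.40 in the same comparison. The summed levels of the 12 fibroblast genes were 81.6 and then 80.8 to 81.0, and the part of the markers was not tested.

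The H2A genes of chromosome 1 did not pass here: H2AC20 differed by 0.06, H2AC18 by -0.09 and H2AC19 by -0.06. H2BC21 thus fell by 0.89 on the log2 scale, while its divergent partner H2AC20 read 9.87 and 10.09 against 10.10 and 9.99. The difference between the partners was not tested. The 4 genes H1-2, H2BC21, H2BC5 and H4C8 were called lower both when Y15 was added to lapatinib and when lapatinib was added to PF04554878, which is 4 of the 10 and 4 of the 5 genes called lower. That is 11.1% of the 36 members, beside 92 of all 11564 genes (0.796%) called lower in both.

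Against untreated cells, PF04554878 went with higher signals of 3 H2A genes of chromosome 1. H2AC18 was 3.74-fold, H2AC19 3.28-fold and H2AC20 2.93-fold higher, and their H2B neighbour H2BC21 was 2.40-fold higher. In all 17 of 36 members rose and 1 fell, where 23.7% of all genes were called higher and 21.6% lower. The 17 include H2AC21, which was above background only in the PF04554878 groups and passed the filter through them. The median was 0.28 over the members and 0.00 over all genes. Of the 18 members above background on all arrays, 13 rose and 1 fell. A fit of only the genes above background on all arrays called 4063 in either direction, beside 5232 in the main fit. The comparison crosses the sets of arrays.

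H2AC18 read 8.48 and 8.51 untreated and 10.31 and 10.48 with PF04554878, a change of 1.90 ± 0.14 (limma adjusted p = 3.45e-08). A second H2AC18 probe had means of 7.61 and 9.28. H2AC19 read 8.46 and 8.52 against 9.95 and 10.45. H2AC20 read 8.41 and 8.46 against 9.87 and 10.09, a change of 1.55 ± 0.11 (limma adjusted p = 1.67e-08). For these 3 genes all 4 arrays of the PF04554878 set lay above the other 8. They include the PF04554878 plus lapatinib arrays of H2AC18 at 10.46 and 10.15 and of H2AC19 at 10.22 and 10.07. The 3 were picked for their large changes, and such a separation was not counted over all genes.

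Elsewhere, H4C8 was higher by 0.97 and H1-2 by 0.91, both on chromosome 6. H2BC12 was also higher by 0.91, from 10.81 and 11.34 to 12.07 and 11.91, although its untreated arrays had an SD of 0.37. H2BC11 rose by 0.81 from 6.84 and 6.99, near the background cutoff. H2AC25, an H2A gene apart from the main chromosome 1 cluster, read 7.47 and 7.16 untreated and 7.84 and 8.11 with PF04554878, a rise of 0.66. The other 8 that rose did so by 0.30 to 0.45: H4C14, H2BC5, H2AC21, H2AC6, H2BC4, H3C10, H4C15 and H2BC6. H2AC21 and H2BC6 were not above background on the untreated arrays, so their folds are bounds of at least 1.14-fold and at least 1.11-fold. Since H2AC21 passed the filter only with PF04554878, its rise is not independent of the filter in any comparison with that inhibitor.

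H4C3, an H4 gene, fell with PF04554878, from 13.51 and 13.16 to 12.50 and 12.66, a change of -0.76 ± 0.17 (limma adjusted p = 0.00196). Its values lay near the top of the scale, and no other member fell. H4C3 read 13.26 and 13.10 with Y15, 13.30 and 12.96 with lapatinib, 13.15 and 12.86 with Y15 plus lapatinib, and 12.81 and 12.23 with PF04554878 plus lapatinib, so only the PF04554878 set lay wholly below the untreated arrays and all others. Markers moved here as well, 1 of 3 fibroblast, 1 of 2 basal and 2 of 3 identity genes tested. ACTA2 was higher by 1.75 and COL5A1, a fibroblast collagen gene, by 1.53, while ERBB2 and GRB7 each fell by 0.59 on the log2 scale. The summed log2 levels of the 12 fibroblast genes were 79.6 to 79.9 untreated and 81.6 on both arrays with PF04554878, and those of the 5 basal genes 34.8 to 35.4 and 36.8 to 37.1. Their part in the result was not tested. Without PF04554878 replicate 1, H2AC6, H3C10, H4C15 and H2BC6 lost their calls, H4C15 also without untreated replicate 2, and H2BC6 also without PF04554878 replicate 2 or untreated replicate 1.

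**Figure D2:**
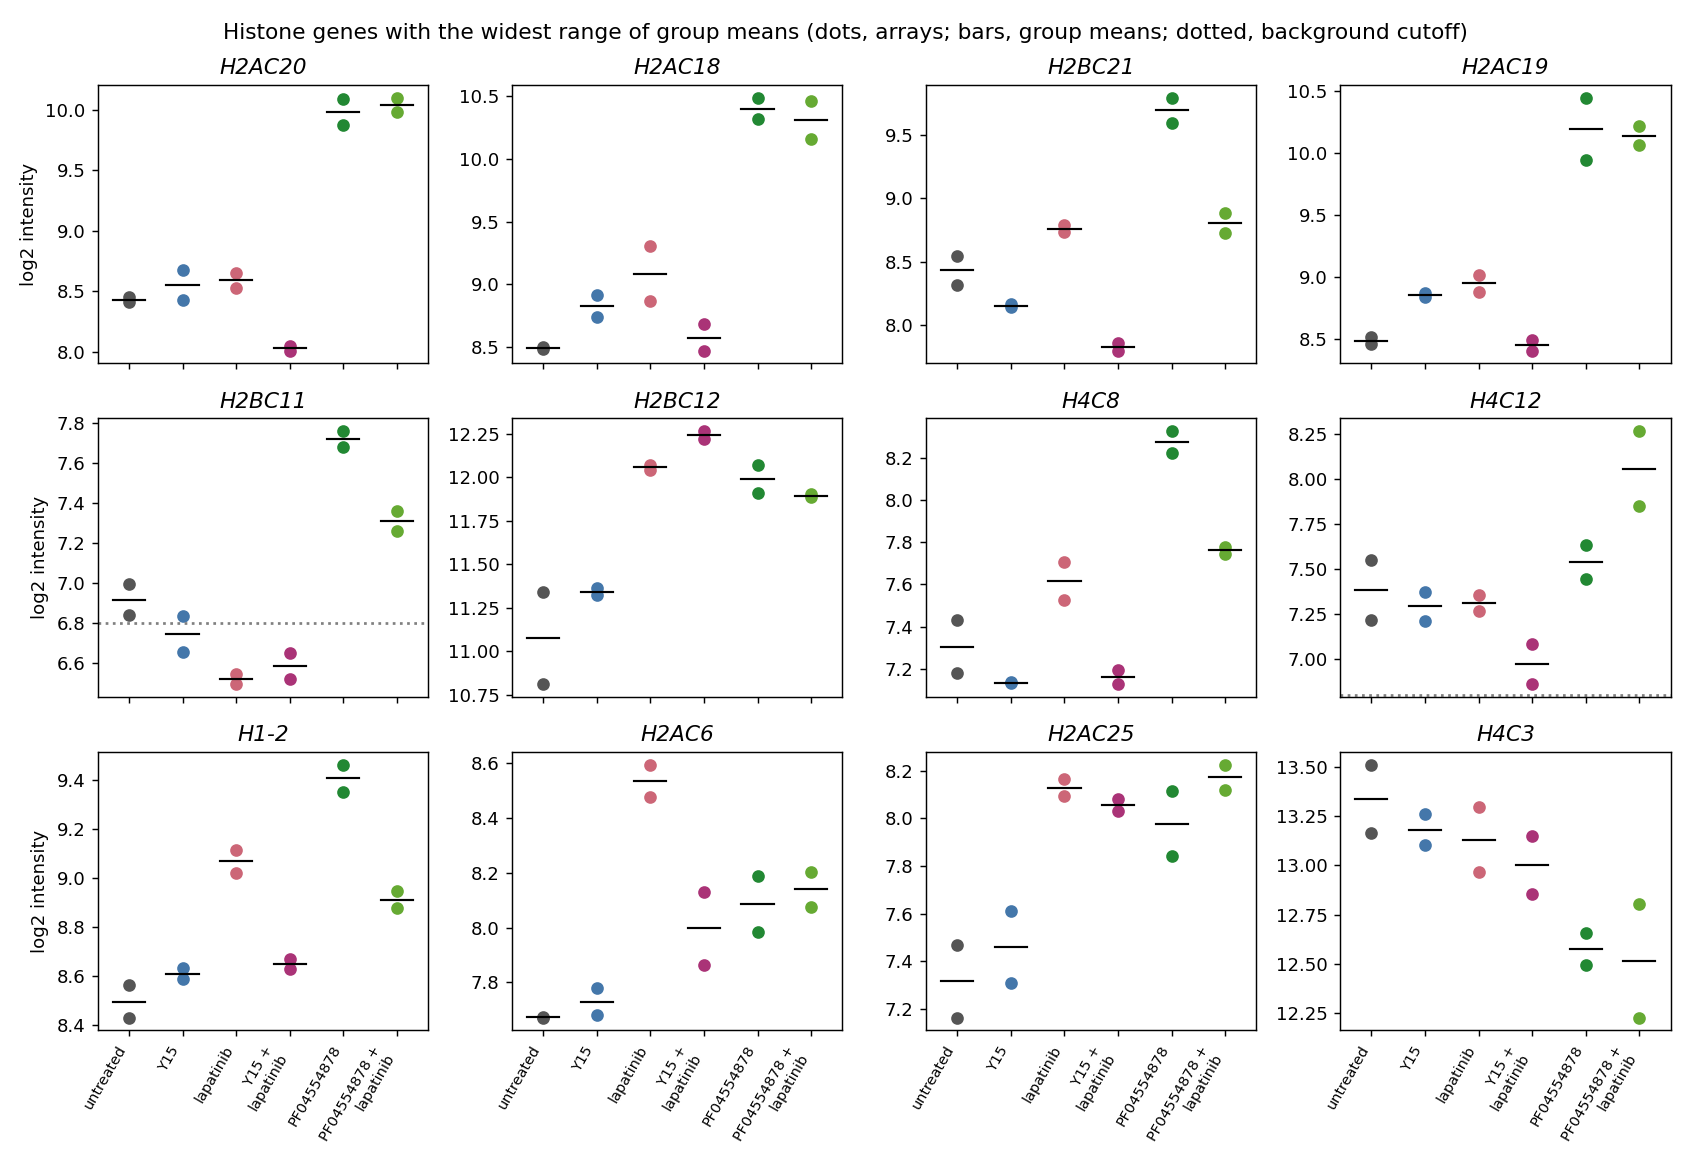
Log2 intensity (y axes) of the 12 histone genes with the widest range of group means, on each array (dots) of the 6 groups (x axis), with group means as bars and the background cutoff of 6.80 dotted where it is in range. H2AC18, H2AC19 and H2AC20 are highest on all 4 arrays labelled PF04554878 or PF04554878 plus lapatinib, and H2BC21 is lowest with Y15 plus lapatinib.

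With PF04554878 plus lapatinib, 16 of 36 members were higher and 1 was lower than in untreated cells, where 23.7% of all genes were called higher and 22.6% lower, and the medians were 0.20 and -0.01 (limma). H2AC18 was higher by 1.81, H2AC19 by 1.65, H2AC20 by 1.61, H2AC25 by 0.86 and H2BC12 by 0.82. H2BC21 was higher by 0.37 ± 0.10, H4C12 by 0.68 ± 0.14, and H4C3 was lower by 0.82 ± 0.17 on the log2 scale. The arrays of H2AC25 read 8.23 and 8.12, those of H2AC6 8.20 and 8.08 and those of H2BC12 11.90 and 11.89. H2BC21 lost its call without untreated replicate 1 or without replicate 2 of the combination.

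Lapatinib alone moved other members most. Against untreated cells 17 of 36 were called higher and 4 lower, where 27.9% of all genes were called higher and 28.0% lower, with a median of 0.24 over the members and -0.01 over all genes. H2BC12 was 1.97-fold higher, H2AC6 1.82-fold, H2AC25 1.76-fold and H2BC5 1.53-fold. H2BC12 read 12.04 and 12.07 against 10.81 and 11.34 untreated, and H2AC6 read 8.48 and 8.59 against 7.68 and 7.67, the highest H2AC6 values of the series. H2AC25 read 8.17 and 8.09 against 7.47 and 7.16.

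H2AC18, H1-2, H3C10, H2BC8, H2AC19, H3C7, H4C14, H2BC21, H4C8, H2AC17 and H2BC4 rose by 0.26 to 0.59. H2BC18 was also called higher, but its means lay below the cutoff in both groups (6.52 and 6.78), so no change is given, and with no filter its brightest probe gave -0.045. The 4 that fell, H3C8, H2AC11, H2BC11 and H1-1, were not above background with lapatinib. Their folds are bounds, at least 1.19-fold lower for H3C8 and for H2AC11, at least 1.08-fold for H2BC11 and at least 1.07-fold for H1-1. H2AC8 was called higher too, and was not above background untreated, so its rise is a bound of at least 1.18-fold. Without lapatinib replicate 1 the count of 21 fell to 13, and H2AC18 and H2BC21 were among those lost, at 0.37 and 0.30. H2AC19 lost its call without lapatinib replicate 2, H2BC21 without untreated replicate 1, and H4C8 without either of these. Of the 18 members above background on all arrays, 13 rose and none fell. The fit of only such genes called 4852 in either direction, beside 6470 in the main fit. Of the markers tested, 1 of 2 basal, 1 of 1 adipocyte and 2 of 3 fibroblast genes were called. So were 1 of 1 endothelial, 1 of 1 leukocyte and 2 of 3 identity genes. ACTA2 was higher by 2.24, ESAM by 0.58 and LUM by 0.29, while LEP fell by 1.07, ERBB2 by 0.85, CD68 by 0.62, COL5A1 by 0.57 and GRB7 by 0.31 on the log2 scale. The 5 basal genes summed to 34.8 to 35.4 untreated and 37.3 to 37.4 with lapatinib, and the 5 adipocyte genes to 34.1 to 34.3 and 33.1 to 33.2. Their part was not tested.

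Y15 plus lapatinib against untreated cells gave 4 members called higher and 8 lower, where 27.4% of all genes were called higher and 27.1% lower, and medians of -0.04 and -0.01 (limma). H2BC12 was higher by 1.17 (2.24-fold), H2AC25 by 0.74, H2AC6 by 0.32 and H3C10 by 0.30, and the H2AC25 arrays read 8.03 and 8.08. Among the 18 members above background on all arrays 4 were higher and 3 lower, and the other 5 calls were dim members. The fit of only such bright genes called 4706 in either direction, beside 6309 in the main fit. H2BC21 fell by 0.60, H4C12 by 0.41 and H2AC20 by 0.40. H4C12 read 6.86 and 7.08 against 7.55 and 7.21 untreated, 7.21 and 7.37 with Y15 and 7.36 and 7.27 with lapatinib. H3C8, H2AC11, H2BC11, H1-1 and H2BC7 were the other 5 called lower, and none was above background with the combination. Their bounds were at least 1.19-fold lower for H3C8 and H2AC11, at least 1.08-fold for H2BC11 and at least 1.07-fold for H1-1, with none for H2BC7. Without Y15 plus lapatinib replicate 3 the count of 12 fell. With the replicate block it was 7, but no other array carries replicate number 3, so the block in effect leaves that array out. H4C12 lost its call without untreated replicate 1 or Y15 plus lapatinib replicate 1, and H2BC21, H2AC20, H2BC12 and H2AC25 were called whichever array was left out. All of the comparisons with untreated cells share the same 2 untreated arrays, which differed from each other with an SD of 0.162 across genes, against 0.0968 to 0.114 in the other groups.

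**Figure D3:**
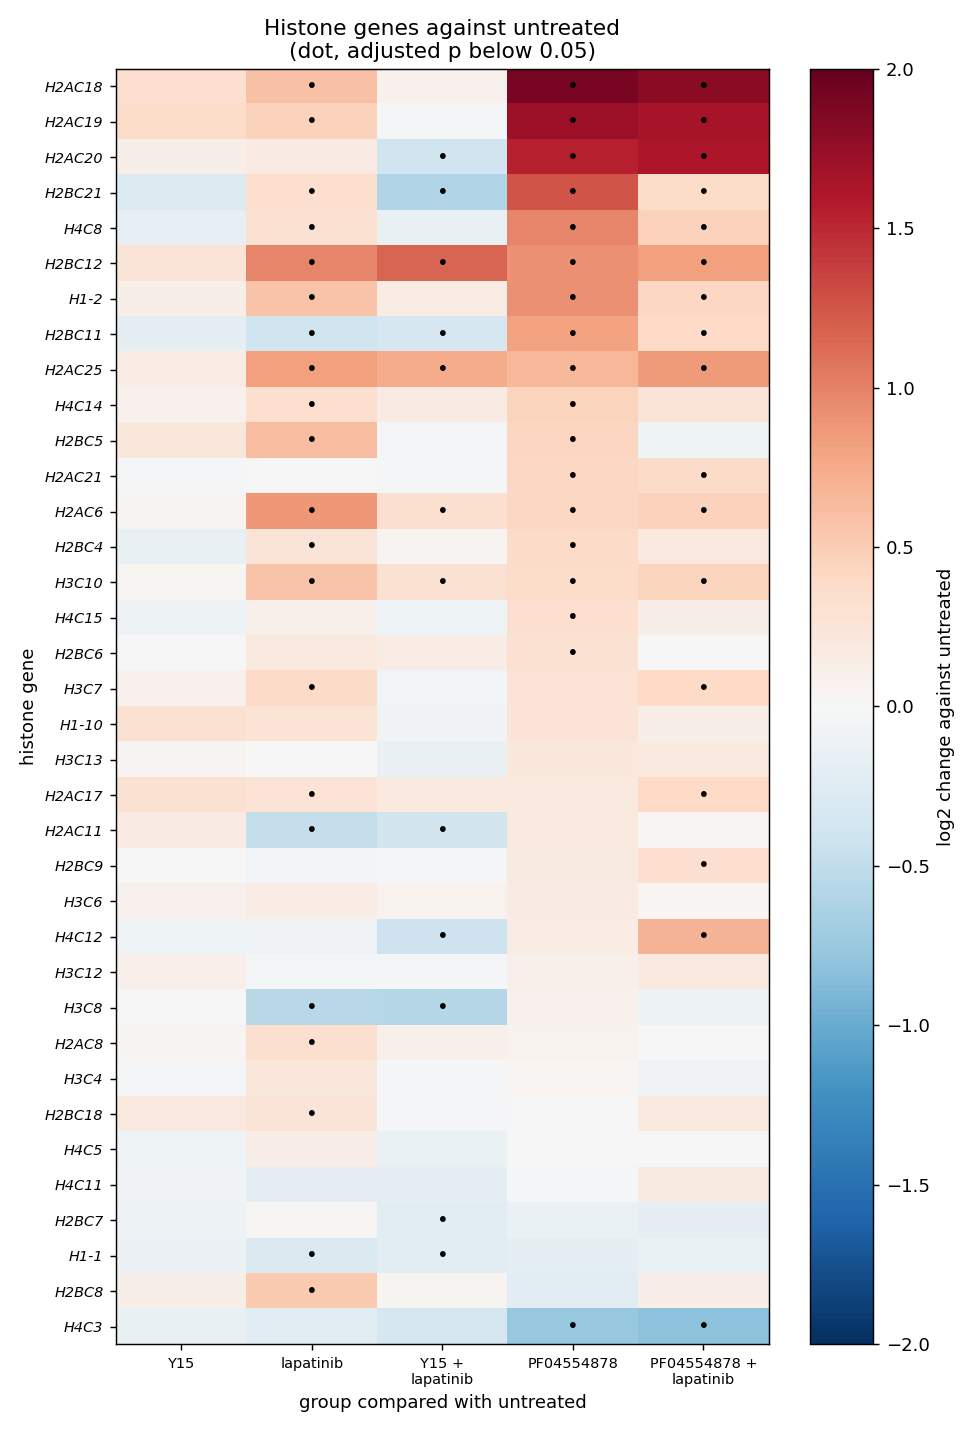
Log2 change against untreated (colour, from -2 to 2) of the 36 histone genes (y axis) in the 5 treated groups (x axis), with a dot where the limma adjusted p was below 0.05. No gene has a dot with Y15, 18 have one with PF04554878 and 21 with lapatinib, and all columns share the same 2 untreated arrays.

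The 2 FAK inhibitors were compared directly at the same dose and time. PF04554878 gave higher histone signals than Y15 for 16 members and lower for 2, where 24.5% of all genes were called higher and 22.9% lower (limma). H2AC18 was 2.97-fold higher with PF04554878 than with Y15 (8.91 and 8.74 with Y15), H2BC21 2.91-fold, H2AC20 2.69-fold (8.68 and 8.43 with Y15), H2AC19 2.53-fold (8.88 and 8.84 with Y15) and H4C8 2.21-fold. H2BC11 differed by 0.98, H1-2 by 0.80 and H2BC12 by 0.65, with H2BC12 at 11.32 and 11.36 on the Y15 arrays. H4C3 was lower with PF04554878 by 0.61 and H2BC8 by 0.33 on the log2 scale. Among the 18 members above background on all arrays 12 were higher and 2 lower. The fit of only such genes called 4235 in either direction, beside 5483 in the main fit. H2BC8 lost its call whichever array was left out, and H4C3 without Y15 replicate 1 or PF04554878 replicate 1. For H2BC5 the difference was 0.20, with a 95% interval from 0.00 to 0.41, and it did not pass. Of the markers, COL5A1 was higher with PF04554878 by 1.42 and ACTA2 by 1.60. GRB7 was lower by 0.85, LEP by 0.64 and ERBB2 by 0.56 on the log2 scale, and their part was not tested. These groups lie in different sets of arrays.

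With lapatinib present, PF04554878 gave higher signals than Y15 for 15 members and lower for 2, where 27.2% of all genes were called higher and 27.1% lower (limma). H2AC20 was 4.04-fold higher, H2AC18 3.31-fold, H2AC19 3.22-fold, H4C12 2.12-fold and H2BC21 1.97-fold. H2BC11 was at least 1.43-fold higher, since it read 6.65 and 6.52 with Y15 plus lapatinib, below background. H2BC12, higher with PF04554878 when the inhibitors were given alone, was lower here by 0.35 on the log2 scale, a call that was lost whichever array was left out and with the replicate block. H2BC5 differed by -0.07, with a 95% interval from -0.27 to 0.13. Among the 18 members above background on all arrays 8 were higher and 2 lower. The fit of only such genes called 4731 in either direction, beside 6278 in the main fit. The comparison also crosses the sets.

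The interaction of PF04554878 with lapatinib was called below 0 for 15 members and above 0 for 3, where 22.9% of all genes were called below and 22.1% above 0. The lowest values were -1.22 for H2BC21, -1.14 for H2BC5, -1.08 for H2BC12 and -1.07 for H1-2, with H4C12 highest at 0.59. Of the 18 members above background on all arrays, 11 were below and 1 above 0. The fit of only such genes called 3905 on either side of 0, beside 5208 in the main fit. This interaction sets a change within a set of arrays against the change from untreated to lapatinib between sets. Set and treatment therefore cannot be told apart in it.

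Genes around histone supply were read in the same comparisons. When Y15 was added to lapatinib, where 6.04% of all genes were called higher and 5.25% lower, 5 of 32 S phase genes tested rose and 1 fell, with MCM10, a replication initiation factor, higher by 0.83 and E2F2, a transcription factor of S phase genes, by 0.58, while POLD1, a DNA polymerase subunit, fell by 0.40. Of 20 mitosis genes 5 rose and 1 fell, with CENPE, a kinetochore motor, higher by 0.94, TTK, a checkpoint kinase, by 0.54 and BIRC5 (survivin) lower by 0.63 on the log2 scale. Of 23 histone chaperone genes 5 rose and 1 fell, with NAP1L1, an H2A and H2B chaperone, higher by 0.61 and SSRP1, a subunit of the FACT chaperone, at -1.51. The median changes were 0.14 for S phase genes, 0.25 for mitosis genes and 0.17 for chaperones, beside -0.21 for the clustered histones. Whether the lists differ from one another was not tested.

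When lapatinib was added to PF04554878, where 4.10% of all genes were called higher and 4.78% lower, 5 of 32 S phase genes fell and none rose, led by TK1, a thymidine kinase, at -0.60 and POLE2, a polymerase subunit, at -0.51. Of 20 mitosis genes 4 fell and none rose, led by BIRC5 at -0.98 and CCNB2, a mitotic cyclin, at -0.50. Of 23 chaperones 2 fell, SSRP1 by 0.77 and ASF1B, an H3 and H4 chaperone, by 0.38. The part of the cell cycle in the histone changes was not tested.

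**Figure D4:**
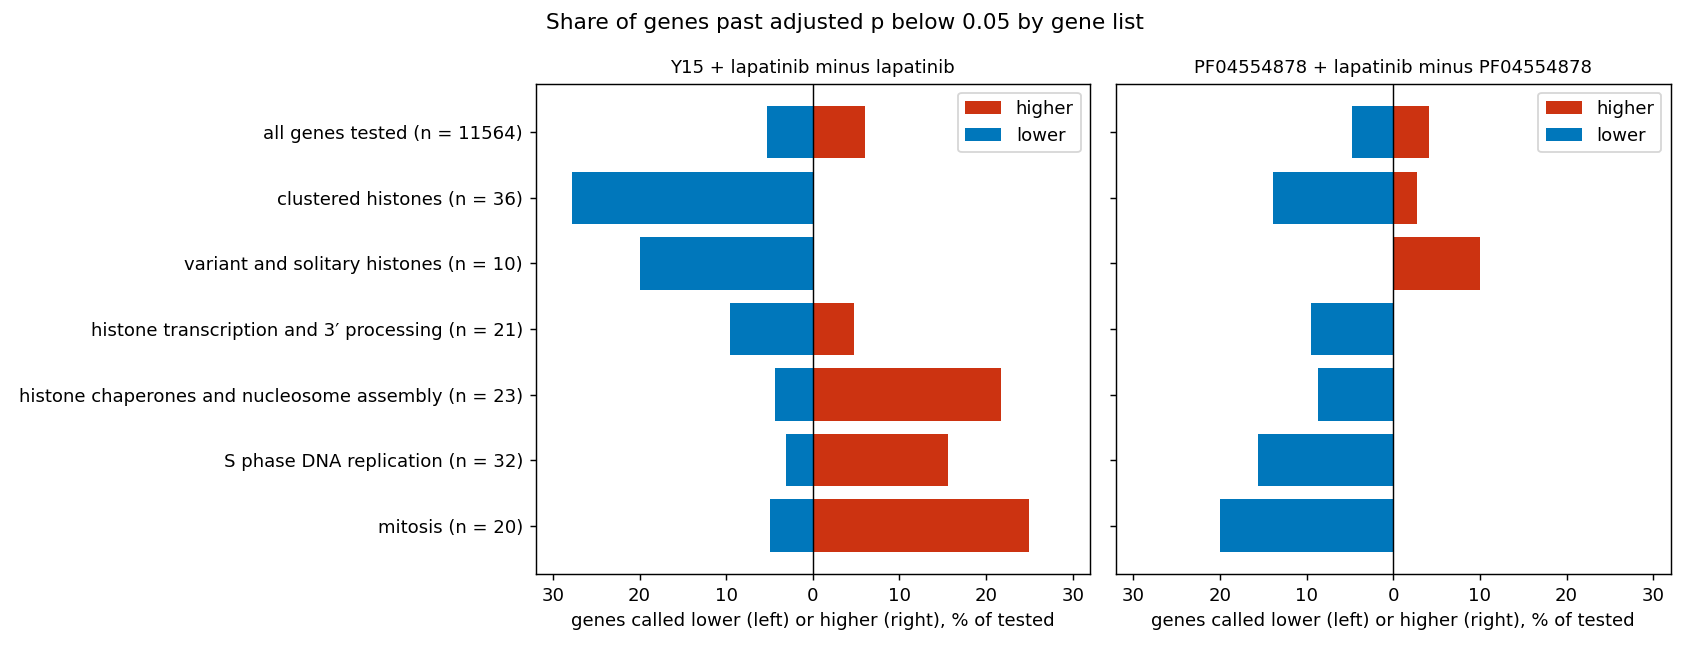
Percent of tested genes called lower (bars to the left) and higher (bars to the right) at a limma adjusted p below 0.05, for all genes, the clustered histones and 5 gene lists (y axis, n tested in brackets), when Y15 was added to lapatinib and when lapatinib was added to PF04554878. On the left panel the histone bar lies wholly on the lower side, while the bars for chaperones, S phase and mitosis lie mostly on the higher side.

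SLBP did not pass in any comparison within a set. It differed by 0.08 when Y15 was added to lapatinib (limma adjusted p = 0.611), by -0.17 when lapatinib was added to PF04554878 (adjusted p = 0.261) and by 0.10 with Y15 alone (adjusted p = 0.543). NPAT rose by 0.38 when Y15 was added to lapatinib (limma adjusted p = 0.0122), and its changes were -0.04 when lapatinib was added to PF04554878 and 0.15 with Y15 alone, neither past the threshold. Against untreated cells SLBP was higher by 0.67 with lapatinib (limma adjusted p = 8.27e-06) and differed by 0.10 with PF04554878 (adjusted p = 0.356), while NPAT was higher by 0.23 with lapatinib (adjusted p = 0.0361) and differed by 0.01 with PF04554878. With Y15 plus lapatinib they were higher than untreated by 0.76 (SLBP) and 0.61 (NPAT). With PF04554878 plus lapatinib they differed from untreated by -0.07 and -0.03. NPAT was dim, with means of 6.77 untreated, 6.78 with PF04554878 and 6.74 with PF04554878 plus lapatinib, all below the background cutoff of 6.80. No array of these PF04554878 groups was above it, so the NPAT differences of 0.01, -0.04 and -0.03 compare signals near background. Folds of dim genes are compressed, so the NPAT rises from untreated may be understated. Of 21 histone transcription and 3′ processing genes 1 rose and 2 fell on adding Y15 to lapatinib. Over all genes 6.04% were called higher and 5.25% lower. The 2 that fell were NFYC, a subunit of a CCAAT-binding factor, and SYMPK (symplekin), a 3′ processing scaffold. On adding lapatinib to PF04554878, 2 of 21 fell, WDR33, a 3′ processing factor, and CCNE1, cyclin E, where 4.10% of all genes were called higher and 4.78% lower.

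Variant and solitary histone genes, most of which are also transcribed outside S phase, were read beside the clustered genes. On adding Y15 to lapatinib 2 of 10 fell, H2AX, the variant phosphorylated at DNA breaks, by 0.86 (limma adjusted p = 0.033) and H2AJ by 0.44, and none rose. In that comparison 5.25% of all genes were called lower and 6.04% higher. On adding lapatinib to PF04554878 none fell and H3-3B, an H3.3 gene, rose by 0.78 (limma adjusted p = 5.72e-05). There 4.78% of all genes were called lower and 4.10% higher. Against untreated cells 5 of 10 rose with PF04554878 and none fell, where 23.7% of all genes were called higher and 21.6% lower. With lapatinib 4 rose and 3 fell, where the shares were 27.9% and 28.0%. With Y15 alone 1 of 10 rose, and of the other lists no S phase gene, 1 chaperone (ASF1B, by 0.43) and no mitosis gene rose, while SSRP1 fell by 0.96 and BIRC5 by 0.54. Of the 21 transcription and 3′ processing genes 2 fell with Y15 alone, TENT4B, a poly(A) polymerase, by 0.41 and CSTF2, a cleavage factor subunit, by 0.30, and none rose. Over all genes 5.44% were called.

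Divergent H2A and H2B partners could be read together in 4 pairs. With PF04554878 both partners of H2BC21 and H2AC20 rose (1.26 and 1.55), as did both of H2BC4 and H2AC6 (0.38 and 0.41), while H2BC11 rose by 0.81 beside 0.20 for H2AC11 and H2BC8 differed by -0.21 beside 0.07 for H2AC8. With lapatinib H2BC4 and H2AC6 rose by 0.26 and 0.86 and H2BC8 by 0.52, with a bound of at least 1.18-fold for H2AC8, while H2BC11 and H2AC11 were called lower, both below background there. On adding Y15 to lapatinib the changes were -0.93 and -0.56 for H2BC21 and H2AC20, -0.21 and -0.54 for H2BC4 and H2AC6, -0.46 and -0.22 for H2BC8 and H2AC8, and 0.06 and 0.11 for H2BC11 and H2AC11, the last pair below background in both groups. Of these, H2BC21, H2AC20, H2AC6 and H2BC8 passed.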

How the data were processed

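The authors deposited a processed table of log2 intensities for 12 Illumina arrays, which was used here. GenomeStudio is named, without a version, per the submitters' processing notes. How background and normalization were handled is not given in the sources used here. Sorted columns differ by at most 0.0146, so the arrays share 1 distribution. Another deposited table of intensity values was not used, because its 24 per-sample columns are headed with names that match no label.

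Background was the mode of all values, 6.55, with an SD of 0.0827 from the values below it, and the cutoff was the mode plus 3 SD (6.80). Of 47318 probes, 30111 carry 1 gene symbol in the platform annotation, 8 several and 17199 none. A probe naming both H3C11 and H3C6 was left out. Probes that exceeded it on 2 or more of 12 arrays numbered 19922, and the brightest per gene gave 11564 genes, 9648 to 9877 of them above the cutoff on an array. Precision is limited by the number of arrays.

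A model of group means was fitted over all 12 arrays (limma 3.58.1 in R 4.3.3, functions lmFit and eBayes), with 6 residual and 9.1 prior degrees of freedom. Adjusted p-values are Benjamini-Hochberg over 11564 genes within each of 11 comparisons, called below 0.05. Where both arrays of a group lay below the cutoff, the fold is a bound of the brighter mean over the cutoff. Members and lists were chosen with earlier results of these data known. Every member above background is named, arrays are printed for the 12 with the widest range of group means, and a few others that a comparison turns on. SLBP, NPAT and up to 2 further called genes a list are named. Alternatives were other filters, other probe rules, the mode subtracted on the linear scale, a replicate block, a fit of the compared groups only and each array left out.

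Replicate numbers did not pair the samples: over 10 pairs of same-numbered arrays, the correlations of deviations from group means ran from -0.33 to 0.13, with 1 above 0.1.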

Additional observations from a re-analysis of the deposited data

Results flagged for a closer look

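The change with Y15 in the presence of lapatinib differed from that in its absence, by limma's interaction test, for 7 histone genes: H1-2 at -0.53, H2AC18 at -0.84, H2AC19 at -0.87, H2AC20 at -0.68, H2AC6 at -0.60, H2BC21 at -0.65 and H2BC5 at -0.86 on the log2 scale. Only the H2BC5 value passed in every fit run.

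The change with PF04554878 differed with and without lapatinib for 18 genes, in an interaction that shares the untreated and lapatinib arrays with the first and crosses the sets of arrays. Those below 0 were H2BC21 at -1.22, H2BC5 at -1.14, H2BC12 at -1.08, H1-2 at -1.07, H4C8 at -0.82, H2AC6 at -0.81, H2AC18 at -0.68, H2AC25 at -0.62, H2AC19 at -0.52, H4C14 at -0.52, H3C10 at -0.51, H2BC6 at -0.50, H2BC4 at -0.45, H2AC8 at -0.38 and H3C4 at -0.34. Those above 0 were H4C12 at 0.59, H4C11 at 0.39 and H1-1 at 0.35. H4C11, H1-1, H2AC8, H2BC6, H3C4 and H2BC4 were not above background on every array, so their sizes are uncertain: H4C11 was below the cutoff with lapatinib, and H1-1 in 3 of the 4 groups that enter. No group held enough arrays to look for single arrays that stand apart.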

How the results depend on the processing

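Over 1645 recalculated values of called members, 1436 kept direction and call, 208 lost the call and 1 reversed: H2BC18 in lapatinib against untreated, at -0.045 with no filter. In counts of called members, subtraction of the mode gave 2 for Y15 against untreated and 1 for the interaction of Y15 with lapatinib. The filter on all 12 arrays, which tests 18 members, gave 13 for lapatinib and 7 for Y15 plus lapatinib against untreated, and 10 for PF04554878 plus lapatinib against Y15 plus lapatinib. With the replicate block, although the numbers do not pair the samples, the count was 7 for Y15 plus lapatinib against untreated. It was 1 for the interaction of Y15 with lapatinib. No other array carries the number of Y15 plus lapatinib replicate 3, so the block in effect leaves that array out. With 1 array left out, whose lone partner is assumed to vary like the other groups, counts ran from 0 to 2 for Y15, 14 to 19 for PF04554878, 13 to 19 for lapatinib, 7 to 14 for Y15 plus lapatinib and 16 to 21 for PF04554878 plus lapatinib, each against untreated. They ran from 3 to 7 for Y15 added to lapatinib, 3 to 5 for lapatinib added to PF04554878, 12 to 16 for PF04554878 against Y15, 13 to 15 for these with lapatinib, and 1 to 9 and 13 to 19 for the interactions with Y15 and PF04554878. The number of all genes called also changed in these fits, so the ranges do not bear on the histone genes alone. Signals near background limit what the 18 dimmer members can show.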
